A study of Rattus norvegicus and Mus musculus with 22 samples.

Results

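The genes described here are the subunits of the RNA exosome, Exosc1 to Exosc10, taken by symbol from each of the 4 count tables of the series. All 10 symbols were found in every table, as 10 of the 22081 gene symbols in each rat table and 10 of the 25683 in the mouse table, and all 10 passed the filter on low counts in every comparison. The set was put together because Exosc6 had 0 counts in tdTomato-positive splenic cells. Exosc6 was thus selected on its counts in the splenic libraries, and the splenic values are given below as a description, from which nothing is inferred about the subunits.

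The RNA exosome is the main machine of the cell for trimming and destroying RNA from its downstream end. In the nucleus it matures ribosomal and small nucleolar RNA and removes promoter and enhancer transcripts, and in the cytoplasm it finishes the decay of messenger RNA. Its core is a ring of subunits related to RNase PH (Exosc4 to Exosc9) under a cap of RNA-binding subunits (Exosc1 to Exosc3). The core itself has little or no nuclease activity in mammals: cutting is done by Exosc10, mostly nuclear, and by Dis3 or the cytoplasmic Dis3l, which attach to it.

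RNA-seq counts were available for whole lung of wild-type (WT) rats and of IL6-KO rats, which lack the cytokine interleukin 6, at day 7 and day 56, with 3 libraries in each of these 4 groups. From lungs of both genotypes at day 7, CD4-positive cells were isolated with magnetic beads (MACS), with 2 libraries in each group. Every rat group, WT included, had the Sugen-hypoxia treatment, in which a VEGF receptor inhibitor and low oxygen produce pulmonary hypertension. CD4-positive cells from spleens of Ai14; SM22alpha-Cre mice were sorted by FACS into tdTomato-positive and tdTomato-negative fractions, with 3 libraries of each, and carry no hypoxia treatment in their labels.

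In these mice Cre is driven by the promoter of SM22alpha (Tagln), a smooth muscle gene, and Ai14 makes a cell and its descendants red once Cre has acted in it, so tdTomato records past as well as present Cre activity. Mouse numbers 1 to 3 recur in both fractions, so that each fraction pair comes from 1 mouse. Rat samples carry numbers in the labels, and whether each number is a different animal is left unsaid, so p-values measure only the spread between these samples. For age, strain and the lesion in the Il6 gene the sources used here give nothing.

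Total counts ran from 14415060 to 23590070 in whole lung, from 11477533 to 12930732 in the lung CD4 isolates and from 8737138 to 12560401 in spleen. Il6 itself had 2 to 8 counts in IL6-KO and 5 to 11 in WT day 7 lung, 0 to 3 and 5 to 6 in day 56 lung, and 8 to 17 and 20 to 48 in the CD4 isolates. The groups overlapped in day 7 lung, and because the lesion is not known these counts do not check the labels. The summed level of 7 T cell markers was 4380 to 4864 CPM (counts per 1000000 counts of the library) in spleen and 2311 to 2710 CPM in the lung CD4 isolates, against 44.4 to 75.1 CPM in day 7 whole lung. The lung CD4 isolates also held macrophage markers, at 1410 to 1412 CPM in WT and 2211 to 2480 CPM in IL6-KO, and epithelial markers, at 1922 to 2615 and 604 to 692 CPM, so they are called isolates and not T cells below. Fewer cells of a type and less RNA per cell cannot be told apart in such bulk libraries.

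In mouse spleen, Exosc6, the ring subunit known as Mtr3 in yeast, was selected for its 0 counts, and its values here describe that selection. Its counts were 156, 98 and 108 in the tdTomato-negative libraries of mice 1, 2 and 3 and 0, 0 and 0 in the tdTomato-positive libraries of the same mice. The tdTomato-negative level was 11.9 ± 5.20 CPM (SD, n = 3), with mouse 1 the highest at 17.9 CPM and the others at 9.21 and 8.53 CPM. Taking 3 counts per library as the limit that a count of 0 allows gives 0.248 to 0.336 CPM in the tdTomato-positive libraries. The tdTomato-negative mean of Exosc6 was 35.3-fold above the highest of these limits. Its lowest tdTomato-negative library was 25.4-fold above that limit. Such limits and intervals cover counting error only.

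Mouse Exosc6 lies on the plus strand of GRCm38 at chr8:111056339-111057664 in GENCODE M21. It has 1 exon of 1326 bases, 822 of them coding with the stop codon, and the coding part is 75.1% G or C. The start and the end of its reading frame are shown because these bases are also annotated as part of another gene. The capitals mark the start codon in the first line (chr8:111056371-111056400) and the stop codon in the other (chr8:111057163-111057192).
mouse Exosc6 coding start: ATGccgggagaccatcgccgcatccgcggg
mouse Exosc6 coding end: cgccggaggggtgccgccgccccacccTGA

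All of Exosc6 lies, on the same strand, inside the last exon of Aars, the gene of cytoplasmic alanyl-tRNA synthetase. That exon, exon 21 of transcript Aars-201, runs from 111055019 to 111057664, and ends at the same base as Exosc6. The whole coding sequence of Exosc6 was found letter for letter in Aars-201, starting at position 4457 of its 5750 bases, and in none of the other 6 annotated Aars transcripts. No other subunit gene shared a base of its exons with another gene on its strand in this annotation. Overlaps with genes on the opposite strand were not searched. The further neighbours were Ddx19b upstream and Clec18a and Pdpr downstream. Counts of Exosc6 in mouse are therefore uncertain, since a read from these bases can be given to either gene and the sources used here do not state the counting rule.

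**Figure D1:**
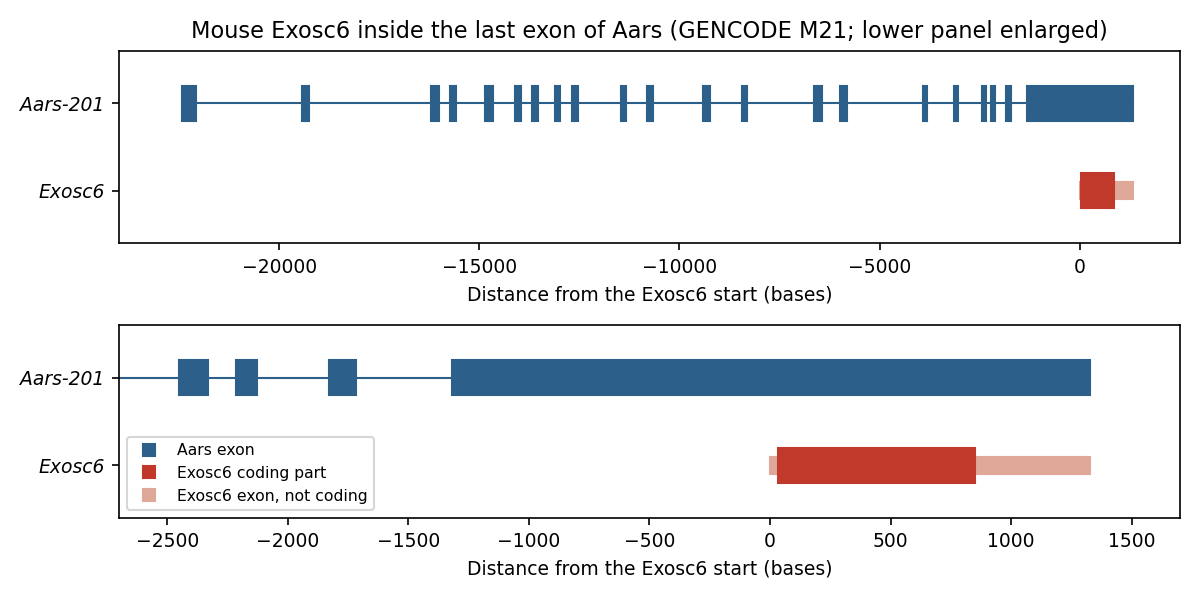
Exons of mouse Aars-201 (blue) and Exosc6 (red, coding; pale, not coding) by distance in bases from the start of Exosc6, both on the plus strand; the lower panel enlarges the end of the locus. The 1326 bases of Exosc6 all fall inside the 2646 bases of the last Aars exon.

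Aars had 990, 1561 and 1483 counts in the tdTomato-negative libraries of mice 1, 2 and 3 and 1865, 1469 and 1293 in the tdTomato-positive ones. Scaled for library size, these were 113.3, 146.7 and 117.2 CPM against 154.0, 164.7 and 118.9 CPM. Within each mouse the tdTomato-positive level was thus the higher, in mouse 3 by little. The fractions overlapped for Aars, with tdTomato-negative mouse 1, the library with the most Exosc6 counts, the lowest. Of the counts of both genes, Exosc6 took 13.6% (exact Clopper-Pearson 95% interval 11.7 to 15.7) in tdTomato-negative mouse 1, 5.91% (4.82 to 7.15) in mouse 2 and 6.79% (5.60 to 8.14) in mouse 3. In the tdTomato-positive libraries of mice 1, 2 and 3 the same exact intervals ran from 0 to 0.198%, 0.251% and 0.285%. With 3 counts as the limit that a count of 0 allows, the share was up to 0.161%, 0.204% and 0.232%. Aars alone was at 126 ± 18.2 CPM in tdTomato-negative and 146 ± 24.0 CPM in tdTomato-positive cells (SD, n = 3 each). With both genes added together the level was 138 ± 16.1 CPM in tdTomato-negative and 146 ± 24.0 CPM in tdTomato-positive cells, a difference smaller than the spread. The tdTomato-negative Exosc6 mean of 11.9 CPM was below the SD of either sum, so the sums cannot show where its reads went. The part that the assignment of shared reads has in the Exosc6 result was not tested.

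Because Exosc6 was selected for this pattern, how rare the pattern is in the same libraries is a description only. Of 9432 genes with at least 30 counts in each tdTomato-negative library, 1, Exosc6, had 0 counts in all 3 tdTomato-positive libraries. In the reverse direction the number was 0 of 9491. In centred log2 CPM over the 6 splenic libraries, the genes nearest to Exosc6 were Bfsp2, Zfp248, Lbp, Cyp2d22 and Nek2, but the closest of them, Bfsp2, still lay a root mean square of 2.10 away, against 2.98 for a profile that does not vary at all.

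For each of the other 9 subunits the libraries of the fractions overlapped. Within mice, Exosc3, Exosc5 and Exosc8 were lower in the tdTomato-positive fraction of all 3 mice, and the other 6 differed in sign between mice. Exosc8 had 154.4, 151.1 and 140.7 CPM in tdTomato-negative and 142.1, 136.0 and 129.1 CPM in tdTomato-positive cells of mice 1 to 3. Exosc10, the nuclear nuclease, had 147.6, 172.7 and 207.5 CPM in tdTomato-negative and 219.5, 197.2 and 177.6 CPM in tdTomato-positive cells of mice 1 to 3. The order of the mice was opposite in the fractions, and the log2 fold change of tdTomato-positive over tdTomato-negative was 0.17 (SE 0.14). The log2 fold changes in this paragraph are from a fit that does not pair the fractions by mouse. Exosc3, a cap subunit with a KH and an S1 RNA-binding domain, had 63.2, 56.2 and 46.9 CPM against 51.2, 54.2 and 46.0 CPM, for which the log2 fold change was −0.13 (SE 0.16). Mouse 3 was the lowest in both fractions.

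Summed over the 10 genes, subunit RNA was 794 ± 24.5 CPM in tdTomato-negative and 779 ± 38.5 CPM in tdTomato-positive cells (SD, n = 3 each). Exosc6 made up 1.11% to 2.21% of the subunit counts in the tdTomato-negative libraries. Of the 11083 genes tested between the fractions 0.00902% were called, which is 1 gene, Exosc6. Since it was selected on these counts the call restates the selection, and it was lost without the tdTomato-negative library of mouse 1. The median log2 fold change of the 10 subunits was −0.07, beside −0.01 for all genes. Macrophage markers summed to 19.1 to 35.7 CPM in tdTomato-negative and 46.1 to 58.5 CPM in tdTomato-positive cells and B cell markers to 29.0 to 54.0 and 65.9 to 78.0 CPM, and their part in the splenic values was not tested. Smooth muscle markers were at 2.40 to 5.61 CPM in both.

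**Figure D2:**
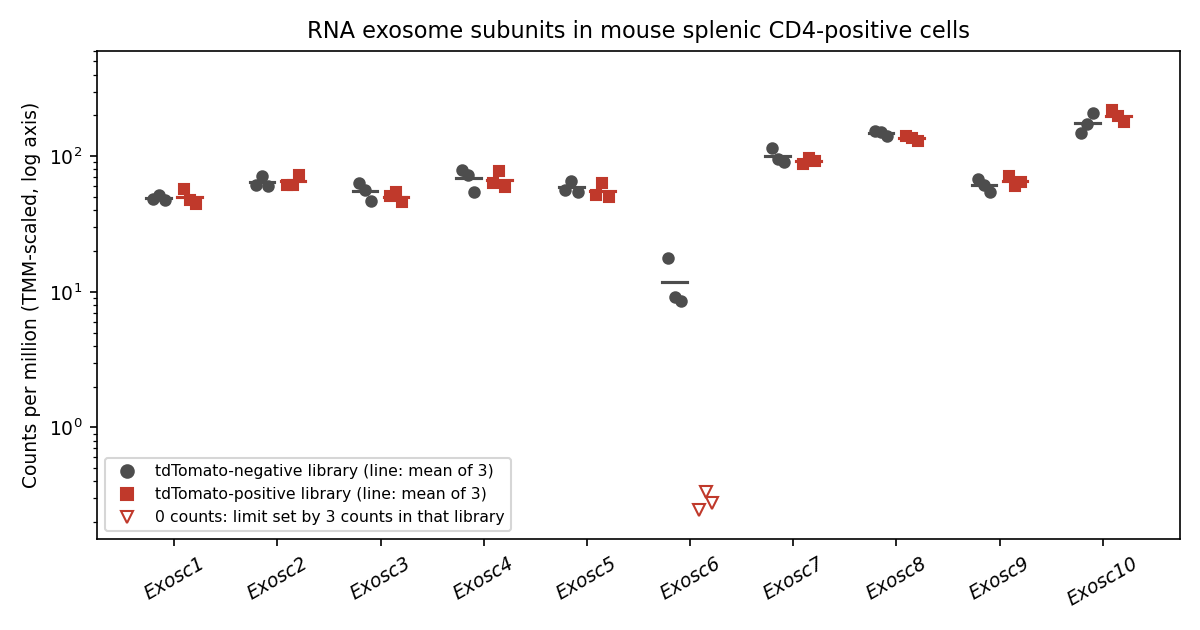
CPM (TMM-scaled, log axis) of the 10 subunits in each splenic library, tdTomato-negative (grey circles) and tdTomato-positive (red squares), with lines at the means of 3. The fractions overlap for 9 subunits; for Exosc6 the open triangles mark the limit that 3 counts set in each tdTomato-positive library, 0.248 to 0.336 CPM, below all 3 tdTomato-negative libraries.

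Levels of different genes were compared only per kilobase of annotated exon, on the GENCODE M21 lengths, which count the exons of all transcripts and so understate genes with long alternative exons. In tdTomato-negative cells Exosc10 was the highest, at 49.0 ± 8.38 CPM per kilobase (SD, n = 3), then Exosc3 at 41.9 ± 6.19, Exosc4 at 35.4 ± 6.38 and Exosc8 at 34.3 ± 1.65. These levels overlapped from one to the next in the order. Exosc2 followed at 22.2 ± 2.06, Exosc7 at 16.6 ± 2.10, Exosc9 at 13.1 ± 1.40 and Exosc1 at 12.1 ± 0.565 CPM per kilobase. On these lengths Exosc5, at 9.39 ± 0.980, and Exosc6, at 8.95 ± 3.92, were the lowest of the core subunits and did not differ beyond their spread. The nucleases outside the set were lower still, Dis3l at 5.10 ± 0.842 and Dis3 at 3.43 ± 0.277 CPM per kilobase. This order rests on the lengths used. Exosc5, Exosc7 and Exosc8 have 6268, 6013 and 4333 annotated exon bases, but 1680, 1053 and 1300 in their longest coding transcripts. Exosc6 has 1326 in both, all shared with Aars. Levels on transcript lengths were not computed, and the order cannot be carried over to them.

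In whole lung of rats at day 7, no subunit of the exosome was called between IL6-KO and WT. The comparison asks what the loss of interleukin 6 does to the lung early in the Sugen-hypoxia course. The quasi-likelihood test of edgeR called 2.09% of 14368 genes (300), and 0 of the 10 subunits. None reached an unadjusted p under 0.05, a level that 2045 of all genes reached, and DESeq2 also called 0 of them. The subunits' log2 fold changes ran from −0.12 to 0.12, with a median of 0.01 beside 0.00 for all genes.

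Among the cap subunits, Exosc2 had 15.7, 16.1 and 13.4 CPM in WT and 14.0, 13.5 and 14.1 CPM in IL6-KO day 7 lung. The groups overlapped, and the log2 fold change was −0.12 (95% interval −0.37 to 0.12). Exosc5, a ring subunit, had 8.42, 9.21 and 10.3 CPM in WT and 8.64, 9.08 and 12.5 CPM in IL6-KO, with a log2 fold change of 0.12 (95% interval −0.25 to 0.48). Without IL6-KO library 3 that value was −0.074. For Exosc10, with 53.2, 53.4 and 55.3 CPM in WT and 52.6, 53.5 and 58.8 CPM in IL6-KO, the interval of the log2 fold change was −0.14 to 0.19. The narrow intervals of Exosc9 and Exosc10 hold changes of at most 0.23 on the log2 scale in either direction, while that of Exosc6 ran from −0.95 to 1.03.

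Rat Exosc6 was counted in every library but thinly. Its counts were 16, 19 and 21 in WT and 16, 8 and 35 in IL6-KO day 7 lung. The IL6-KO libraries lay on both sides of all WT libraries, and IL6-KO libraries 2 and 3 differed from each other 3.70-fold. The log2 fold change was 0.04 (SE 0.44, adjusted p = 0.986 by edgeR's quasi-likelihood test) and −0.59 without IL6-KO library 3. Exosc6 was 0.191% to 1.26% of the subunits' counts in the 12 lung libraries, and so the least counted subunit in each.

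Later in the course, at day 56, no subunit was called between IL6-KO and WT lung either. Of 14475 genes 0.0138% were called (2), and 0 of the 10 subunits by edgeR's quasi-likelihood test and 0 by DESeq2. No subunit, and 1649 of all genes, had an unadjusted p under 0.05. The log2 fold change was below 0 in 8 of the 10, with a median of −0.17 beside −0.01 for all genes. Exosc9 and Exosc10 were the exceptions, at 0.07 and 0.11.

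Exosc3 and Exosc6 stood out at day 56 by the scatter of the WT libraries. Exosc3 had 11.7, 13.4 and 6.32 CPM in WT libraries 1, 2 and 3, and 7.91, 7.98 and 8.48 CPM in IL6-KO. WT libraries 1 and 2 lay above all IL6-KO libraries and WT library 3 below them. The log2 fold change of Exosc3 was −0.37 (SE 0.26, adjusted p = 0.561 by edgeR's quasi-likelihood test). Without WT library 3 it was −0.62 (adjusted p = 0.0398), and 1268 of all genes (8.63%) were called in place of 2.

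Exosc6 had 50, 59 and 5 counts in the same WT libraries, or 2.60, 2.61 and 0.347 CPM, and 17, 23 and 14 counts in IL6-KO day 56 lung. WT library 3 was again the lowest of the 6, a 7.51-fold range within WT. The log2 fold change was −0.90 (SE 0.64, adjusted p = 0.563) and −1.36 without WT library 3 (adjusted p = 0.0530), both by edgeR's quasi-likelihood test. Exosc10, by contrast, had 53.4, 50.6 and 51.7 CPM in WT and 53.9, 56.1 and 58.4 CPM in IL6-KO, so WT library 3 was in no way apart for it. Its log2 fold change was 0.11 (95% interval −0.08 to 0.30).

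**Figure D3:**
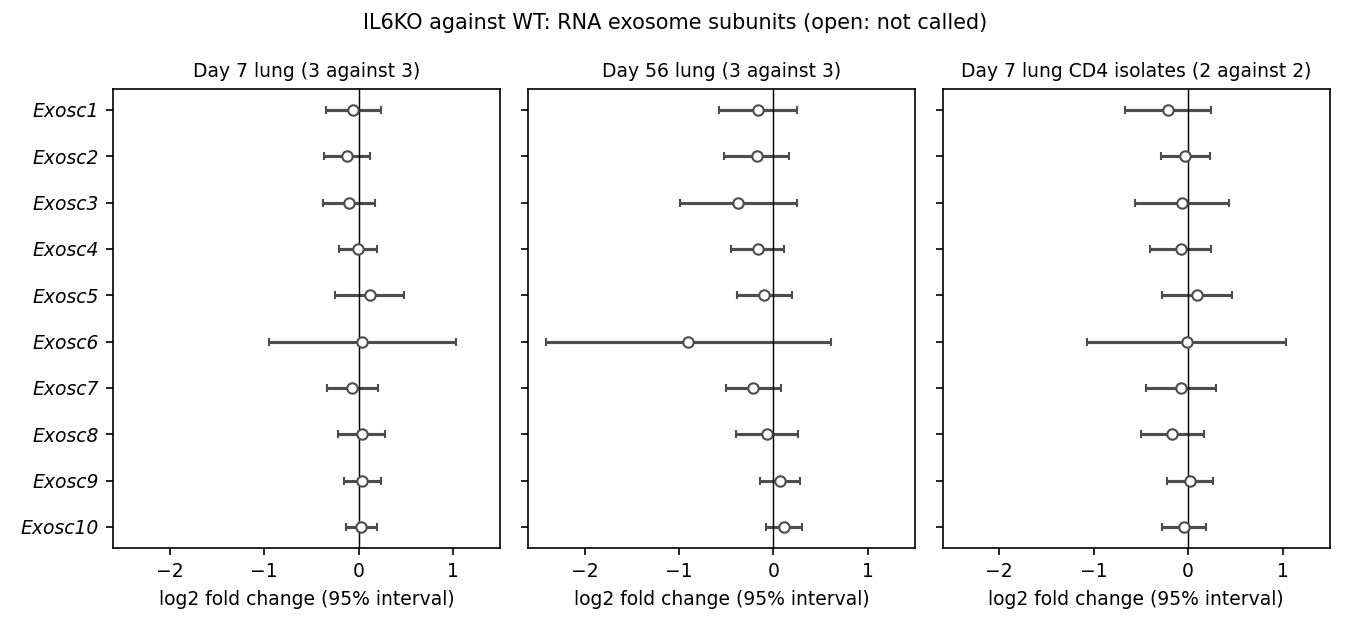
Log2 fold change of IL6-KO over WT for the 10 subunits in whole lung at day 7 and at day 56 and in CD4 isolates of day 7 lung, with 95% intervals from edgeR; open circles mark genes not called. Every interval spans 0, and those of Exosc6 are the widest, from −2.41 to 0.61 at day 56.

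The day 56 WT libraries differed across many genes. On the first principal component of the day 56 lung libraries, with 44.5% of the variance, WT libraries 1 and 2 were at −45.3 and −34.0 and WT library 3 at 18.3, among the IL6-KO libraries at 16.9 to 22.0. Genes with G- and C-rich transcripts moved along with this. The 631 rat genes whose mouse namesakes are in the top 5% of transcript G and C content had a median centred log2 level of 0.17 and 0.21 in WT libraries 1 and 2, −0.18 in WT library 3, and −0.11 to −0.04 in IL6-KO. The Exosc6 transcript in mouse is 64.9% G or C, at the 99.4th percentile of genes, and that of Exosc3 49.1%, at the 50.3rd. The part of these differences in the Exosc6 and Exosc3 values was not tested. In spleen, 454 genes in the same top 5% had medians of 0.09, 0.17 and −0.06 in the tdTomato-negative libraries of mice 1, 2 and 3. The tdTomato-positive libraries had −0.05, 0.07 and −0.19, lower within each mouse. Any part of this in the splenic Exosc6 counts was not tested either.

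At day 7 the G- and C-rich genes were at −0.16, −0.10 and 0.16 in IL6-KO libraries 1, 2 and 3. Library 3, which also had the most Exosc6 counts, was the highest of these. In centred log2 CPM over the 12 lung libraries, the genes nearest to Exosc6 were Zfp771, Best1, Scand1, Hist2h2aa3 and Ppp1r14a. Zfp771 lay a root mean square of 0.322 from Exosc6, against 0.788 for the median gene. The mouse transcripts of Zfp771 and Scand1 are both at the 99.8th percentile of G and C content, that of Ppp1r14a at the 97.7th and that of Best1 at the 60.2nd.

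The rat promoters of Exosc3 and Exosc6 are shown because these subunits had the widest ranges among the day 56 WT libraries, 2.12-fold and 7.51-fold, against at most 1.41-fold for the other 8. Exosc8 and Exosc9 were also lowest of the 6 libraries in WT library 3, at 14.2 and 26.8 CPM. The sequences are from RefSeq on GRCr8, 250 bases before to 20 bases after the gene start, on the minus strand at chr5:64374692-64374961 for Exosc3 and the plus strand at chr19:55931273-55931542 for Exosc6. The capitals mark CGGAAG, the core letters bound by ETS-family factors, searched on both strands (CTTCCG on the other).
rat Exosc3 promoter: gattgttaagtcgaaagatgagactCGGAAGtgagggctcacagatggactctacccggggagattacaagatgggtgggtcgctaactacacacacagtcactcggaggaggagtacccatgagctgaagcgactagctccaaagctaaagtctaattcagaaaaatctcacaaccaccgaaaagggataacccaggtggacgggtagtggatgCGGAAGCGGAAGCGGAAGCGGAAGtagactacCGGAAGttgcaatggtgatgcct
rat Exosc6 promoter: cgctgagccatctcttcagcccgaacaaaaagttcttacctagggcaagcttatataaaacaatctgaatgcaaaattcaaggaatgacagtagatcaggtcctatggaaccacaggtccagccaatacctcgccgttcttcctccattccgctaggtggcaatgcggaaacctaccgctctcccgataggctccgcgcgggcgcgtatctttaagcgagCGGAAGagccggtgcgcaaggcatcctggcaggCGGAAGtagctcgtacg

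The letters occur 6 times in the Exosc3 promoter, 4 of them in an unbroken run, and 2 times in that of Exosc6. Of 33469 rat promoters of 300 bases, 16.6% hold the letters at least once and 4.1% at least 2 times. The promoter of Dis3 holds them 2 times and that of Exosc5 once, and those of Exosc1, Exosc2, Exosc7, Exosc8, Exosc9 and Exosc10 do not hold them. Exosc4 and Dis3l had no entry. A match is a run of letters and not a shown binding site. Since Exosc3 and Exosc6 were picked by their ranges, the matches are a description only. Any part of the letters in those ranges was not tested.

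Between day 7 and day 56, no subunit was called in either genotype, although day and count table cannot be told apart. In WT lung 14.8% of 13865 genes were called and in IL6-KO lung 8.32%, and 0 of the 10 subunits in each by edgeR's quasi-likelihood test and by DESeq2. Unadjusted p was under 0.05 for 3 subunits in WT (Exosc5, Exosc7 and Exosc8) and for 0 in IL6-KO, beside 4151 and 3060 of all genes. The median log2 fold change of day 56 over day 7 was 0.23 in WT and −0.01 in IL6-KO, beside 0.01 and 0.03 for all genes.

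For these comparisons CPM were scaled over both lung tables together, so they differ slightly from the values within a table given above. Exosc8, a ring subunit, had 15.1, 14.2 and 13.8 CPM at day 7 and 19.0, 20.04 and 14.8 CPM at day 56 in WT lung. Day 56 library 3 lay below day 7 library 1, so the groups overlapped by that library, and the log2 fold change was 0.33 (SE 0.12, adjusted p = 0.0917 by edgeR's quasi-likelihood test). Exosc7, another ring subunit, had 23.9, 27.1 and 25.5 CPM at day 7 and 31.8, 35.6 and 29.7 CPM at day 56 in WT lung, with all day 56 libraries above all day 7 libraries. Its log2 fold change was 0.34 (SE 0.13, adjusted p = 0.0968). Exosc5 averaged 10.02 ± 1.09 CPM at day 7 and 13.1 ± 0.746 CPM at day 56 (SD, n = 3 each), without overlap, and its log2 fold change of 0.39 (SE 0.15, adjusted p = 0.106 by edgeR) was not past the threshold.

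These calls in WT turned on single libraries. Without WT day 56 library 3, edgeR called 3 subunits higher at day 56, Exosc3 (log2 fold change 0.68, adjusted p = 0.00201), Exosc6 (1.28, adjusted p = 0.0471) and Exosc8 (0.45, adjusted p = 0.00912), in a fit that called 26.1% of all genes. Without IL6-KO day 7 library 3, which enters the shared spread, it called Exosc5 (0.39, adjusted p = 0.0485) and 14.5% of all genes. The difference of the genotype effect between the days was called for 0 of the 10 subunits and 0 of 13865 genes by edgeR, and for 0 of the 10 by DESeq2. Unadjusted p was under 0.05 for 0 subunits and 1043 genes. Without WT day 56 library 3, 597 genes and 0 subunits were called.

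Genes of proliferation changed between the days in the same libraries. Of the 12 on that list, 11 fell from day 7 to day 56 in WT and 10 in IL6-KO, among them Top2a, the DNA topoisomerase of dividing cells (log2 fold change −2.16 in WT), and Ccnb1, the mitotic cyclin (−2.18 in WT). Of the exosome's cofactors 1 of 9 nuclear ones rose in WT, Zcchc7 of the TRAMP complex (0.35, adjusted p = 0.0470 by edgeR), and 0 of 4 of the cytoplasmic SKI complex changed. Among 31 other RNA decay genes 3 rose in WT, the nonsense-mediated decay factors Upf2 (0.40), Upf3a (0.38) and Upf3b (0.34). Of 29 ribosome biogenesis genes 1 rose, Utp3 (0.33). These shares lie below the 14.8% of all genes called in WT or, for the nuclear cofactors at 1 of 9, near it. In IL6-KO lung 0 genes of these cofactor, decay and ribosome biogenesis lists were called, beside 8.32% of all genes. The day 7 comparison of IL6-KO with WT lung called 2.09% of 14368 genes. In it 4 of the 12 proliferation genes fell (Ccnb1, Top2a, Birc5 and Cdk1, Ccnb1 by 0.76 on the log2 scale). None of the cofactor, decay or ribosome biogenesis lists had a called gene there, which for lists of 4 to 33 genes is near that share.

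**Figure D4:**
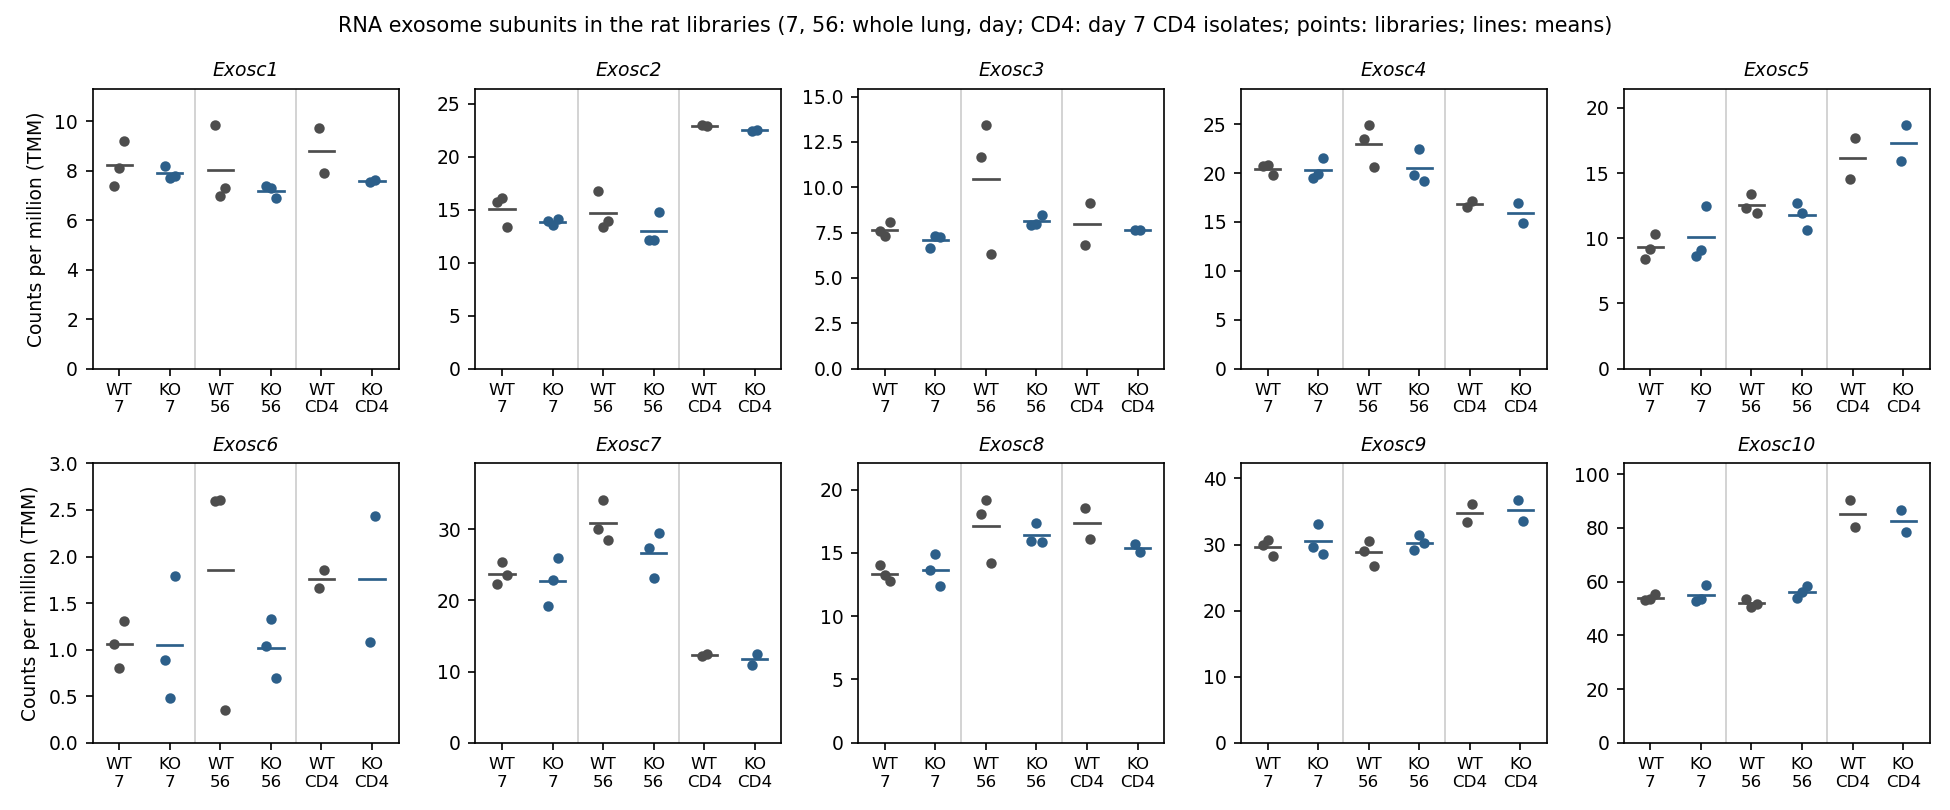
CPM (TMM-scaled within each count table, axes starting at 0) of the 10 subunits in the rat libraries, WT in grey and IL6-KO in blue, by whole lung at day 7, whole lung at day 56 and CD4 isolates of day 7 lung; points are libraries, horizontal lines group means, and vertical lines separate the tables, between which levels should not be compared here. In day 56 WT lung 1 library lies far below the other 2 for Exosc6 (0.347 CPM) and Exosc3 (6.32 CPM).

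In the CD4 isolates of day 7 lung, no subunit was called between IL6-KO and WT. Of 12243 genes 6.40% were called, and 0 of the 10 subunits by edgeR's quasi-likelihood test and by DESeq2. None of the 10 and 2871 of all genes had an unadjusted p under 0.05. The median log2 fold change was −0.06, beside 0.00 for all genes. Exosc1, a cap subunit with an S1 domain, had 9.72 and 7.89 CPM in WT and 7.54 and 7.64 CPM in IL6-KO, so both IL6-KO libraries were lower, with a log2 fold change of −0.21 (95% interval −0.67 to 0.25). Exosc8 had 18.6 and 16.1 CPM in WT and 15.7 and 15.1 CPM in IL6-KO, with a log2 fold change of −0.17 (95% interval −0.50 to 0.16). Exosc6 had 19 and 24 counts in WT and 13 and 28 in IL6-KO, with overlapping groups.

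Against whole lung at day 7, Exosc10, Exosc2 and Exosc5 were higher in the CD4 isolates and Exosc7 was lower, in both genotypes. The comparison sets cell isolates against the tissue they came from, and isolation and count table cannot be told apart. CPM in this comparison were scaled over both tables together. In WT, edgeR's quasi-likelihood test called 7 subunits higher and 1 lower, and in IL6-KO 5 higher and 1 lower. Of all 14772 genes, 81.4% were called in WT (37.7% higher, 43.6% lower) and 79.5% in IL6-KO (36.4% higher, 43.2% lower). The median log2 fold change of the 10 was 0.60 in WT and 0.40 in IL6-KO, beside −0.12 for all genes in each.

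The scaling bears on these calls. With library totals in place of TMM factors, an alternative added after the data were seen, the median of all genes shifted by −0.31 in WT and −0.19 in IL6-KO. The calls were then 29.4% higher and 51.4% lower among all genes in WT, and 30.6% and 48.3% in IL6-KO. Among the subunits 4 were called higher and 2 lower in WT, and 3 higher and 2 lower in IL6-KO. Exosc10, Exosc2, Exosc5 and Exosc7 were called in the same direction in both genotypes under both scalings.

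The nuclease Exosc10 had 104.0 and 91.2 CPM in WT isolates and 49.5, 49.8 and 51.8 CPM in WT lung. It had 94.0 and 83.9 CPM in IL6-KO isolates against 49.1, 49.8 and 54.9 CPM in IL6-KO lung, and isolates and lung did not overlap. Its log2 fold change was 0.95 in WT (SE 0.09, adjusted p = 6.94e-07) and 0.79 in IL6-KO by edgeR, and 0.64 and 0.60 with library totals. Dis3, the main nuclear nuclease of the complex, had 55.3 and 53.1 CPM in WT isolates and 24.0, 23.3 and 19.5 CPM in WT lung. Dis3l, its cytoplasmic counterpart, had 19.8 and 19.9 CPM in IL6-KO isolates against 32.9, 31.6 and 31.3 CPM in IL6-KO lung. Dis3 was thus higher (log2 fold change 1.28 in WT and 1.08 in IL6-KO) and Dis3l lower (−0.87 and −0.68) in the isolates, all 4 called by edgeR under either scaling.

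Of the cap, Exosc2 had 26.4 and 26.1 CPM in WT isolates and 24.4 and 24.0 CPM in IL6-KO isolates, above the 12.5 to 14.98 CPM of all day 7 lung libraries. Its log2 fold change was 0.90 in WT (SE 0.11, adjusted p = 6.55e-06) and 0.91 in IL6-KO. Exosc1 had 11.2 and 8.98 CPM in WT isolates and 6.85, 7.55 and 8.61 CPM in WT lung, and Exosc3 had 7.85 and 10.4 CPM against 7.03, 6.80 and 7.55 CPM. The isolates lay above lung for both, but by little. Exosc1 and Exosc3 were called in WT only narrowly, at 0.39 (adjusted p = 0.0335) and 0.36 (adjusted p = 0.0481) by edgeR, and had 0.15 and 0.32 in IL6-KO, where they were not called. With library totals neither was called in WT (0.081 and 0.055), and Exosc1 was at −0.042 in IL6-KO. DESeq2 called neither in WT (adjusted p = 0.105 and 0.148), and with RLE factors or no filter edgeR did not call Exosc3 (adjusted p = 0.0682 and 0.0551). The Exosc1 call was also lost without WT lung library 1 or 2, IL6-KO lung library 2 or WT isolate 1. That of Exosc3 was lost without any 1 of the WT lung libraries, IL6-KO lung library 1 or 2 or WT isolate 2, at adjusted p from 0.0538 to 0.404. In IL6-KO Exosc3 was called without either WT isolate (adjusted p = 0.0388 and 0.0403 by edgeR).

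Of the ring, Exosc5 had 16.7 and 20.2 CPM in WT isolates and 7.83, 8.58 and 9.66 CPM in WT lung, and 17.3 and 19.9 against 8.05, 8.46 and 11.7 CPM in IL6-KO. Isolates and lung did not overlap, and the log2 fold change was 1.09 in WT (SE 0.18, adjusted p = 9.72e-05) and 0.98 in IL6-KO. Exosc8, with 21.3 and 18.3 CPM in WT isolates against 13.1, 12.3 and 11.9 CPM in WT lung, rose by 0.67 in WT. In IL6-KO it had 0.39 (adjusted p = 0.0129 by edgeR), which was no longer called without IL6-KO isolate 1 (adjusted p = 0.0557) or with library totals (0.19, adjusted p = 0.178). Exosc9 had 0.52 in WT and 0.42 in IL6-KO (adjusted p = 0.000274 and 0.00158), and with library totals 0.22 in each, which was not called (adjusted p = 0.0664 and 0.0611). Exosc4 had log2 fold changes of 0.01 and −0.14, neither called, but was called lower with library totals, at −0.30 and −0.34 (adjusted p = 0.0243 and 0.0139).

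Exosc7 went the other way. It had 14.0 and 14.3 CPM in WT isolates against 20.7, 23.6 and 22.1 CPM in WT lung, and 11.9 and 13.3 CPM in IL6-KO isolates against 18.0, 21.3 and 24.2 CPM. Isolates and lung did not overlap, and the log2 fold change was −0.65 in WT (SE 0.14, adjusted p = 0.000924) and −0.75 in IL6-KO (adjusted p = 0.000359), both called with any library left out. Exosc6, another ring subunit, had log2 fold changes of 1.04 (SE 0.50, adjusted p = 0.0724) and 0.91 (adjusted p = 0.114) and was not called. It was called without IL6-KO lung library 3 in both genotypes, and in IL6-KO also without IL6-KO isolate 1, where the log2 fold change was 1.41.

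**Figure D5:**
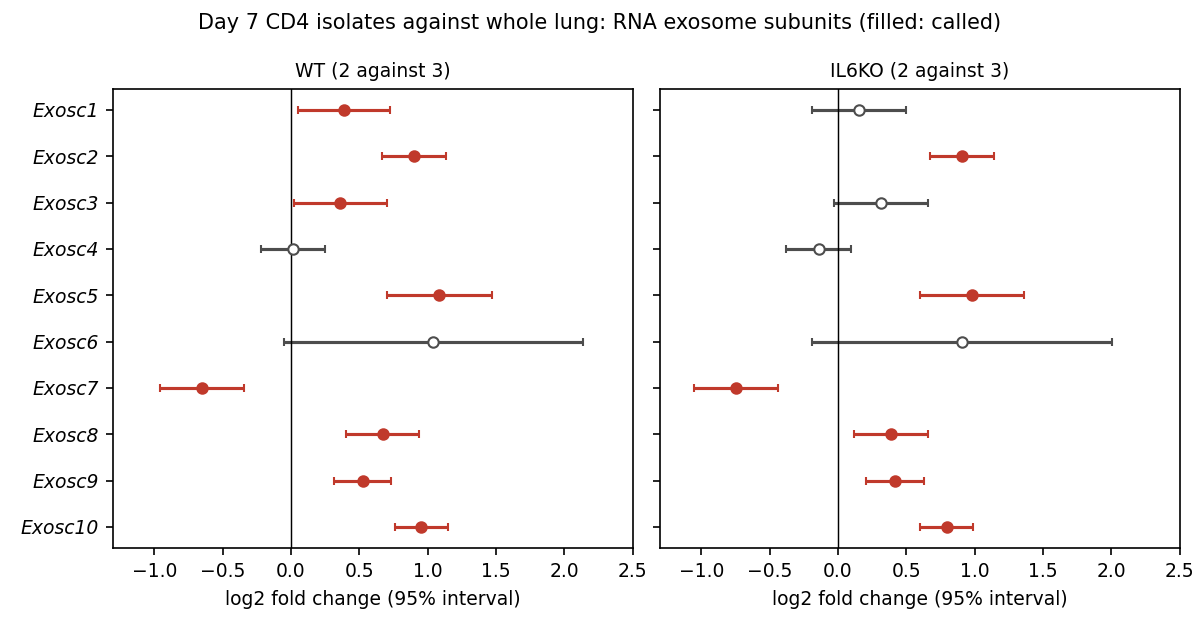
Log2 fold change of day 7 lung CD4 isolates over whole lung for the 10 subunits in WT and IL6-KO rats, with 95% intervals from edgeR; filled red circles mark genes called at an adjusted p under 0.05. With TMM scaling Exosc10, Exosc2, Exosc5, Exosc9 and Exosc8 are right of 0 and Exosc7 left of 0 in both genotypes; with library totals Exosc9, and Exosc8 in IL6-KO, are not called.

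The isolates' difference from lung was itself tested between the genotypes, in a comparison added after the data were seen. It was called for 0 of the 10 subunits by edgeR and by DESeq2, and for 6.42% of 14772 genes. The median of all genes was −0.11 here, and 0.0075 with library totals. In this test 0 of the 10 and 3186 of all genes had an unadjusted p under 0.05. The largest value was that of Exosc8, at −0.28 (95% interval −0.67 to 0.10), and Exosc1 followed at −0.24. The isolates of the genotypes also differed in their markers: CD8 markers summed to 107 to 141 CPM in WT and 14.0 to 17.2 CPM in IL6-KO, with the macrophage markers given above. Their part in the subunits' values was not tested.

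With TMM scaling, RNA decay genes outside the subunits were mostly higher in the isolates. Of all genes, 37.7% were called higher and 43.6% lower in WT, and 36.4% and 43.2% in IL6-KO. With library totals the shares were 29.4% and 51.4% in WT, and 30.6% and 48.3% in IL6-KO. Of 12 nuclear cofactors 10 rose and 1, Tent4a, fell in WT and 8 rose in IL6-KO, while with library totals 7 were higher and 2, Tent4a and Mphosph6, lower in each. The TRAMP and NEXT adaptors Zcchc7 (log2 fold change 1.99 in WT), Rbm7 (1.64) and Zcchc8 (1.29) led them and were called under both scalings. Of the SKI cofactors 3 of 4 rose in each genotype, Ttc37 by 1.35 in WT, and Wdr61, which also serves in other complexes, fell by 0.97 in WT. With library totals 3 were higher in WT and 1, Ttc37, in IL6-KO.

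The lists below are again to be read beside the 37.7% of all genes called higher in WT and 36.4% in IL6-KO. With library totals these shares were 29.4% and 30.6%. Of 33 other decay genes 30 rose and 0 fell in WT and 26 rose and 1, Upf3a, fell in IL6-KO. With library totals 24 were higher and 2, Cnot8 and Upf3a, lower in WT, and 23 and 1 in IL6-KO. Examples in WT were Pan3 (log2 fold change 1.56), a subunit of a deadenylase, and Ddx6 (1.63), an RNA helicase of decapping. Of 29 ribosome biogenesis genes 27 rose in WT and 26 in IL6-KO and 0 fell, against 26 and 25 with library totals, among them Rrp12 (2.08), Npm1 (2.31) and Nop56 (1.94) in WT. Proliferation genes rose too, 9 of 12 in WT and 10 of 12 in IL6-KO, with 1, Cdk1, lower in each, and with library totals 6 in WT. Pcna, the DNA polymerase clamp, was 2.03 higher in WT on the log2 scale.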

How the data were processed

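The authors deposited raw read counts, 1 column per sample ("total counts" per the file headers), for 12 rat lung, 4 rat lung CD4 and 6 mouse splenic libraries. The genome build was GRCm38, per the submitters' processing notes, which name this mouse build for the rat samples too; for the aligner, counter and strand setting the sources used here give nothing. The 4 tables were matched to labels with 0 columns unmatched. Between the lung tables, 20230 symbols are shared.

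Counts were filtered (filterByExpr), TMM-scaled and fitted with edgeR 4.0.16 (glmQLFit robust, glmQLFTest) in R 4.3.3. Called means an adjusted p under 0.05, by Benjamini-Hochberg over every gene in the fit. CPM are TMM-scaled within a table, or over both tables where a comparison spans them. DESeq2 1.42.0, RLE factors, no filter, a replicate block and leaving out each library were alternatives, and library totals without TMM were added after the data were seen. Fits were tested on simulated data. Positions are from GENCODE M21 and promoters from RefSeq.

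Members and lists were chosen with earlier results of these data known. Named were the 10 subunits, Dis3, Dis3l, up to 3 called genes per list by smallest p, the 5 genes nearest to Exosc6 and its neighbours. A gene called in a list is not reported here. Outside this rule, Cdk1, Tent4a, Mphosph6, Wdr61, Upf3a, Cnot8 and the measure of G and C content were chosen after their values were seen. The promoters of Exosc3 and Exosc6 were likewise chosen after the ranges of these genes were seen, and the search for CGGAAG was not planned. Replicate numbers pair the splenic fractions because each number is 1 mouse; the correlations of same-numbered deviations there were 0.03, 0.12 and 0.12.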

Additional observations from a re-analysis of the deposited data

How the results depend on the processing

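Over the alternatives, 134 recomputed counts of subunits called were within 1.5 times of the count reported and 4 moved. They are 1 called between IL6-KO and WT in day 56 lung without WT replicate 3 (0 otherwise), 0 in spleen without tdTomato-negative replicate 1 (1 otherwise), and 1 and 3 for day 56 against day 7 in WT lung without IL6-KO day 7 replicate 3 and WT day 56 replicate 3 (0 otherwise). Leaving out libraries gave 6 to 9 called between isolates and lung in WT and 6 to 7 in IL6-KO. RLE factors, no filter, DESeq2 and library totals gave 7, 7, 6 and 6 in WT.

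With the replicate number as a block, 1 subunit, Exosc6, was called in spleen, where numbers pair the mice, as without it; it was selected on these counts, so this adds no support. Elsewhere numbers are only shared: same-numbered deviations correlated at 0.06 to 0.26 for day 7 lung, −0.16 to −0.03 for day 56 lung and −0.00 for the isolates. There the block left 0 subunits called in each genotype comparison and gave 9 and 7 against lung in WT and IL6-KO, with Exosc6 now called (1.38, adjusted p = 0.0202, and 1.34, adjusted p = 0.0287, by edgeR); the block changed no other subunit's call.

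Signs changed for small values. Exosc6 between the genotypes in day 7 lung (0.04) was −0.088 with the block and lay between −0.59 and 0.36 with a library left out. In the isolates it was −0.01, but 0.00067 with DESeq2, 0.010 without the filter, 0.013 with library totals and −0.70 to 0.46 with a library left out. Between the days in IL6-KO it was −0.11 and spanned −0.46 to 0.52. Exosc5 between the genotypes spanned −0.074 to 0.21 in day 7 lung and −0.035 to 0.25 in the isolates. Exosc4 in WT isolates against lung (0.01) was −0.024 with DESeq2, −0.021 with RLE factors, −0.30 with library totals and −0.053 to 0.066 with a library left out. Exosc1 in IL6-KO isolates against lung was −0.042 with library totals. The causes were not tested. Exosc6 had 5 to 59 counts in rat lung, the fewest of the 10 subunits, and so the largest relative counting error.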
